A study of Homo sapiens with 8 samples.

Results

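Endothelial receptor and angiopoietin genes were examined in A375, an established human melanoma cell line. The group holds 10 of the 60710 genes in the count table: the angiopoietins ANGPT1 and ANGPT2, the receptors TEK, TIE1, KDR and FLT1, the co-receptor ENG, the junction genes PECAM1 and CDH5, and VWF. They were chosen by gene symbol, with the response of these same libraries to TNF already known, so every comparison of a member between TNF and NT below is a description and carries no p-value. In 4 independent experiments, cells of this 1 line grown in serum-containing medium were given 50 ng/mL recombinant human TNF or nothing (NT), and polyadenylated RNA was sequenced after 24 hours. This gave 4 TNF and 4 NT libraries, and replicates 1 to 4 are numbered by the experiment date that a TNF and an NT library share in their titles. The counts filed under the single NT samples carry other dates, so which libraries share an experiment is not settled. Within bulk libraries of this kind, a change in the number of cells that express a gene and a change in RNA per cell cannot be told apart.

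These genes are best known from the lining of blood vessels. VEGF ligands signal mainly through the receptor tyrosine kinase encoded by KDR, while the product of FLT1 binds VEGFA, VEGFB and PGF tightly, signals weakly and, in its secreted form, traps ligand. Angiopoietin-1 activates the TEK receptor (also called TIE2) and stabilises vessels, angiopoietin-2 often opposes it, and TIE1 is a related receptor that modulates TEK signalling.

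The genes differed in direction and in level. PECAM1, TEK, TIE1 and KDR were higher in TNF-treated cells, FLT1 was lower, and ENG and ANGPT1 had nearly the same level in both groups. VWF had fewer counts in TNF-treated cells at a very low level, and CDH5 and ANGPT2 were barely detected. Of the 10 genes, 8 passed the filter on low counts, and in edgeR's fit over all genes 4 of them were past the threshold of 0.05 as higher and 1 as lower. Over all 16186 genes tested, 24.4% were past it, 14.5% as higher and 9.9% as lower. Nothing is read from the members' count, since the genes were picked with this contrast in view. Moreover, PECAM1 and TEK had at least 10 counts in all 4 TNF libraries but in only 2 and 1 NT libraries, so they entered the fit through the group in which they were high, and VWF entered it through the NT libraries.

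Promoter sequences of the 4 receptor tyrosine kinases are shown first, because KDR and FLT1 share their ligand VEGFA yet had opposite directions, and TEK and TIE1 form 1 receptor system and had the same direction. The windows come from RefSeq (GRCh38.p14) and run from 250 bases before to 50 bases after the annotated start, and 5 of the 10 genes were matched in that table (TIE1, KDR, TEK, ENG and FLT1). Capitals mark matches, on either strand, to the NF-kB consensus (letters not spelled out), the Sp1 motif GGGCGG, the core promoter motif TATAAA, the GATA factor motif AGATAA or the ETS factor motif CCGGAAG. KDR lies at chr4:55125546-55125845, FLT1 at chr13:28495079-28495378 (both minus strand), TEK at chr9:27108975-27109274 and TIE1 at chr1:43300732-43301031 (both plus strand), and each is printed 5′ to 3′ on the strand of the gene.
KDR: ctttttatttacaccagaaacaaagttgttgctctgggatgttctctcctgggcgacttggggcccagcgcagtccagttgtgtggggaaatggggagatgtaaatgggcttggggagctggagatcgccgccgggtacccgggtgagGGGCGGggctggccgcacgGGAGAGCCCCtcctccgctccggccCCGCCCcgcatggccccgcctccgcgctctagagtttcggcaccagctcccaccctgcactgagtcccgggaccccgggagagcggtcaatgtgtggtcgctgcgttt
FLT1: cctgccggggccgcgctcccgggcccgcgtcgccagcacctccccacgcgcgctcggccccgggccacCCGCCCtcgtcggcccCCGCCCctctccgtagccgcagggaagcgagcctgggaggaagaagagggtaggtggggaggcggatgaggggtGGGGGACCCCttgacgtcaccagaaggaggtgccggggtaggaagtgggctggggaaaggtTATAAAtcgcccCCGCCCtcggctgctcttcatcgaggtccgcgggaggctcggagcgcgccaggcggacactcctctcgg
TEK: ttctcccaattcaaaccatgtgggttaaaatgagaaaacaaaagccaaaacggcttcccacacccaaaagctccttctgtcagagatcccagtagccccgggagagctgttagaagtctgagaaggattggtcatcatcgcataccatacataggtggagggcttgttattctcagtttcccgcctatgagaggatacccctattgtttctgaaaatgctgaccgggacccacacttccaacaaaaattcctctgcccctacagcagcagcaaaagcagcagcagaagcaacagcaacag
TIE1: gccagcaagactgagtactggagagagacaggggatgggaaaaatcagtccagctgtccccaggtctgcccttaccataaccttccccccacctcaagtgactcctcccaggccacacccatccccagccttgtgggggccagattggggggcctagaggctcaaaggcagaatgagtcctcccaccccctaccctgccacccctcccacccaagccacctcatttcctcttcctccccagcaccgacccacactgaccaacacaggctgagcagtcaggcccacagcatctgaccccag

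KDR and FLT1 each held 1 match to the NF-kB consensus, at 83 bases before the start in KDR on the minus strand and at 92 bases before it in FLT1 on the plus strand. The same consensus occurred in 5.91% of 35116 promoter windows. KDR also held 2 Sp1 matches and FLT1 held 3, a motif found in 45.0% of all windows, and FLT1 held 1 TATAAA motif 31 bases before its start, a motif found in 11.5%. No listed motif was found in the windows shown for TEK and TIE1, and a second annotated TEK start had 1 GATA match, a motif found in 10.3% of windows. None of the matches printed overlap each other, and a match in these letters is a description of the window only. The KDR and FLT1 windows were 65.0% and 73.3% G and C, and the windows shown for TEK and TIE1 were 48.0% and 61.3%.

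**Figure D1:**
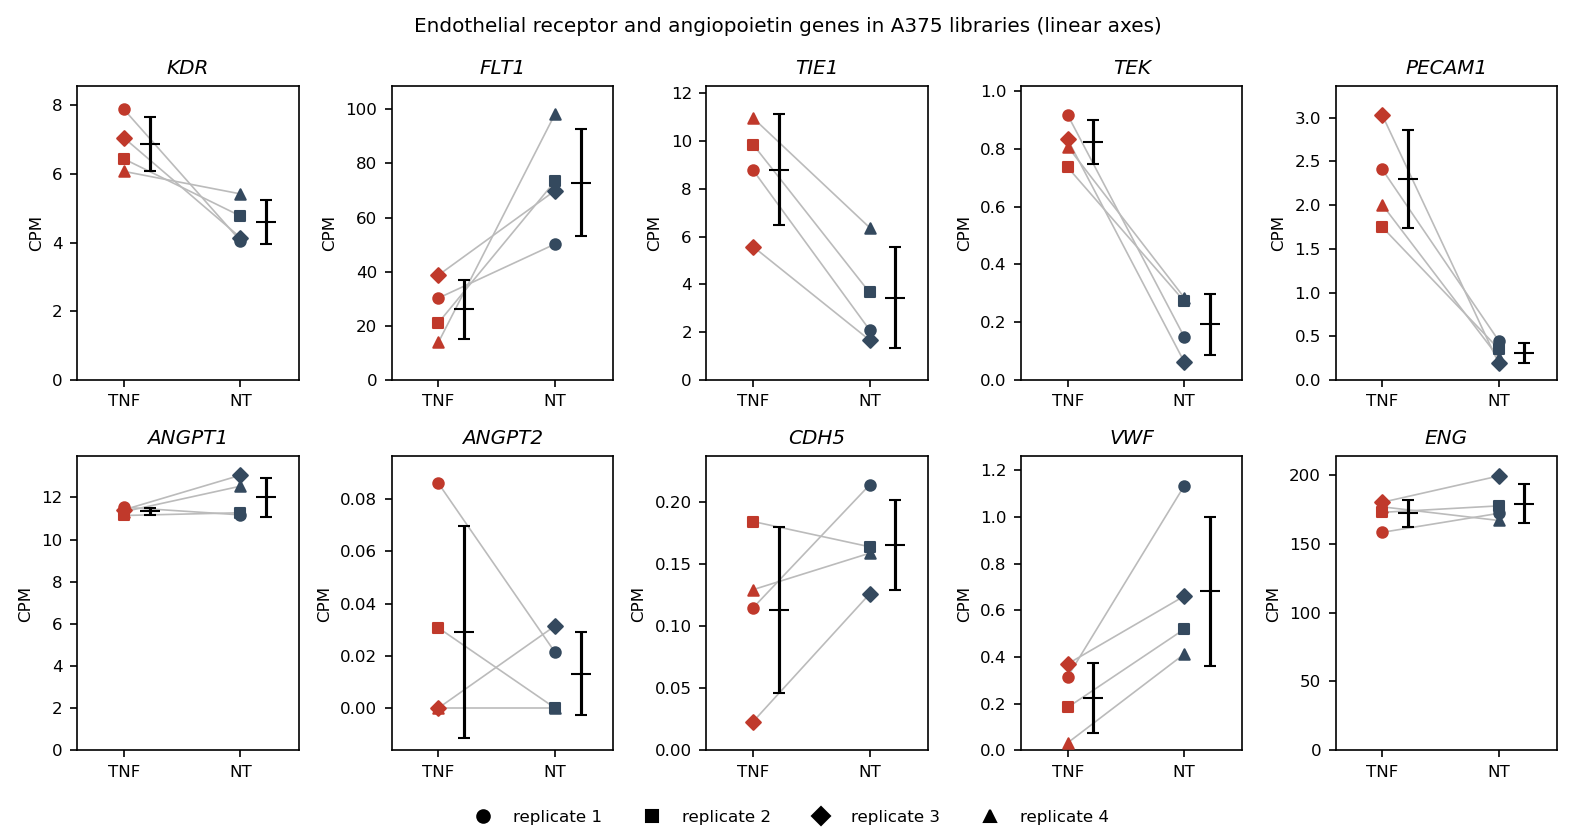
Normalised counts (CPM, linear axes, a separate scale for each gene) in the 4 TNF libraries (left) and 4 NT libraries (right), with grey lines joining libraries of 1 experiment and black marks giving the mean and SD (n = 4 each). The TNF and NT points of PECAM1, TEK, KDR, FLT1 and VWF do not overlap, whereas those of TIE1, CDH5, ANGPT1, ANGPT2 and ENG do. The share of all tested genes without overlap is not given here, and the members were picked with this contrast in view, so nothing is read from their number.

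KDR encodes VEGFR2, the principal signalling receptor for VEGFA. Its normalised read count, in CPM (counts per 1000000 counts of the library after TMM scaling), was 7.89, 6.44, 7.06 and 6.08 CPM in TNF replicates 1 to 4, against 4.06, 4.78, 4.15 and 5.42 CPM in NT replicates 1 to 4. The groups did not overlap, but TNF replicate 4 and NT replicate 4 lay close together. The means were 6.87 ± 0.791 CPM in TNF cells and 4.60 ± 0.634 CPM in NT cells (SD, n = 4 each), which gave 0.58 as the log2 fold change (standard error, SE, 0.14, 95% confidence interval 0.26 to 0.90). Within experiments 1 to 4, the log2 CPM difference of TNF minus NT was 0.95, 0.43, 0.76 and 0.16. KDR was thus higher with TNF in 4 of 4 experiments, by the least in experiment 4. The gene lies at chr4:55078481-55125595 on the minus strand (GRCh38) and has 31 merged exons in GENCODE release 44.

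FLT1, which encodes VEGFR1, had the opposite direction. It was at 30.3, 21.2, 38.7 and 13.9 CPM in TNF replicates 1 to 4, against 50.2, 73.4, 69.9 and 98.2 CPM in NT replicates 1 to 4. Every NT library was above every TNF library, and experiment 4 held both the lowest TNF value and the highest NT value. The means were 26.0 ± 10.8 CPM in TNF cells and 72.9 ± 19.7 CPM in NT cells (SD, n = 4 each), with a log2 fold change of -1.48 (SE 0.30, 95% confidence interval -2.16 to -0.81), a level 2.79-fold lower in TNF-treated cells.

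Paired by the dates in the titles, the FLT1 difference varied in size between experiments more than that of KDR. The log2 CPM difference of TNF minus NT was -0.73, -1.79, -0.85 and -2.81 in experiments 1 to 4, so FLT1 was lower in 4 of 4 experiments. With the experiment entered as a replicate block, the log2 fold change was -1.51 with an SE of 0.46, and FLT1 was no longer past the threshold. The counts filed under the single NT samples carry other experiment dates, and a block on those gave -1.54 with an SE of 0.12, past the threshold. The call with a block thus depends on which dates of the NT libraries hold. For KDR the SE was 0.14 with the block by title and 0.15 with the block on the filed counts. Which gene varied more between experiments therefore depends on the dates as well. A set of 3 libraries (TNF replicate 4 and NT replicates 2 and 4) had a larger share of counts on ribosomal, 7SK and 7SL RNA genes, 0.0113% to 0.0118% against 0.0022% to 0.0040% in the other 5, and without them the FLT1 value was -0.99 (SE 0.28), also short of the threshold. FLT1 lies at chr13:28300346-28495145 on the minus strand, and counts per gene do not separate its membrane-bound form from the shorter, secreted forms.

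Since KDR and FLT1 compete for VEGFA, their levels were compared within each library, per kilobase of merged exon sequence. FLT1 over KDR was 1.93, 1.66, 2.77 and 1.16 in TNF replicates 1 to 4, against 6.24, 7.75, 8.50 and 9.14 in NT replicates 1 to 4. FLT1 was the more abundant transcript in all 8 libraries by this measure. The ratio was 1.88 ± 0.674 in TNF cells and 7.90 ± 1.25 in NT cells (SD, n = 4 each). FLT1 and KDR each separated the groups, in opposite directions, so the ranges of their ratio had to be apart. Nothing further is read from that separation. The height of the ratio depends on the length used, because the merged exons of FLT1 span 12575 bases and its longest transcript 7123. With longest transcripts as lengths, an alternative chosen after seeing the data, it was 3.05 ± 1.10 in TNF cells and 12.8 ± 2.02 in NT cells (SD, n = 4 each). The change of length multiplies the ratio of every library by the same number, so it cannot alter whether the ranges are apart.

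**Figure D2:**
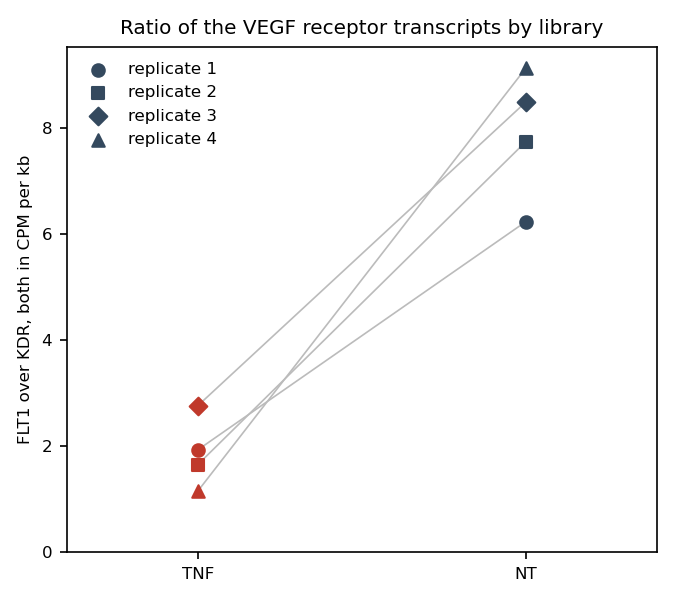
FLT1 over KDR, both in CPM per kilobase of merged exons (linear axis), in the 4 TNF libraries (left) and the 4 NT libraries (right), with grey lines joining libraries of 1 experiment. The TNF points lie between 1.16 and 2.77 and the NT points between 6.24 and 9.14.

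TEK encodes the angiopoietin receptor TIE2. Only 32, 24, 36 and 25 counts were assigned to it in TNF replicates 1 to 4, against 7, 10, 2 and 9 counts in NT replicates 1 to 4. In normalised terms these were 0.918, 0.736, 0.833 and 0.808 CPM in TNF cells, against 0.149, 0.273, 0.0629 and 0.285 CPM in NT cells. The TNF libraries were close to each other and all above the NT libraries, which spread more widely. TEK averaged 0.824 ± 0.0748 CPM in TNF cells and 0.193 ± 0.106 CPM in NT cells (SD, n = 4 each), and the log2 fold change was 2.08 (SE 0.37, 95% confidence interval 1.26 to 2.91). The value was 2.85 without the 3 libraries that had more ribosomal RNA. TEK lies at chr9:27109141-27230174 on the plus strand.

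TIE1 encodes a receptor with no established high-affinity ligand of its own, which pairs with TEK. Its expression was 8.78, 9.85, 5.58 and 10.96 CPM in TNF replicates 1 to 4, against 2.09, 3.66, 1.67 and 6.37 CPM in NT replicates 1 to 4. The groups overlapped, since NT replicate 4 was above TNF replicate 3. Yet, numbered by the dates in the titles, replicate 4 was the highest and replicate 3 the lowest in both groups. By that pairing TIE1 was higher with TNF within each experiment, by 2.04, 1.42, 1.71 and 0.78 log2 CPM in experiments 1 to 4. As the groups overlap, both statements rest on a pairing that is not settled. TIE1 averaged 8.79 ± 2.32 CPM in TNF cells and 3.45 ± 2.13 CPM in NT cells (SD, n = 4 each), with a log2 fold change of 1.36 (SE 0.38, 95% confidence interval 0.51 to 2.20).

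Whether TIE1 was past the threshold changed with the libraries and the block used. Leaving out a library also makes a group smaller, and the reason for the lost calls was not tested. With the replicate block the log2 fold change was 1.47 and the SE 0.20, past the threshold, whereas a block on the counts filed under single samples gave 1.498 with an SE of 0.45, short of it. TIE1 was no longer past the threshold when NT replicate 1 (1.17), NT replicate 2 (1.39), NT replicate 3 (1.13), TNF replicate 1 (1.35), TNF replicate 2 (1.29) or TNF replicate 4 (1.24) was left out. It was past it without NT replicate 4 (1.81) or TNF replicate 3 (1.52), and also without the 3 libraries with more ribosomal RNA, where the value was 2.08. Its expected counts were not whole numbers in 6 of 8 libraries, so some reads were not assigned wholly to TIE1, and the reason was not examined. Its level is therefore less certain than those of KDR and TEK. TIE1 lies at chr1:43300982-43323108 on the plus strand.

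Per kilobase of merged exons, TIE1 was above TEK in every library. TIE1 over TEK ran from 4.80 to 9.72 in TNF libraries and from 9.60 to 19.0 in NT libraries, or from 8.05 to 16.3 in TNF libraries and from 16.1 to 31.9 in NT libraries with longest transcripts as lengths. The ranges overlap with either length, since the change of length scales all libraries alike. The NT ratios rest on no more than 10 TEK counts in a library.

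ANGPT1, the gene of the activating TEK ligand, was at 11.5, 11.1, 11.4 and 11.3 CPM in TNF replicates 1 to 4, against 11.2, 11.3, 13.1 and 12.5 CPM in NT replicates 1 to 4. The groups overlapped, and the log2 fold change was -0.08 with a 95% confidence interval of -0.29 to 0.13. ANGPT2, the gene of the other angiopoietin examined, had 3, 1, 0 and 0 counts in TNF replicates 1 to 4, against 1, 0, 1 and 0 counts in NT replicates 1 to 4, at or below a floor of 3 counts in each library. No fold change is given for it. ANGPT2 shares 658 exon bases with MCPH1 on the opposite strand, the libraries were stranded, and the strand setting of the counting is not given in the sources used here.

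PECAM1 encodes CD31, an adhesion molecule of endothelial junctions, platelets and leukocytes. It had 84, 57, 131 and 62 counts in TNF replicates 1 to 4, against 21, 12.8, 6 and 8 expected counts in NT replicates 1 to 4. As CPM, the values were 2.41, 1.75, 3.03 and 2.005 in TNF cells and 0.448, 0.355, 0.189 and 0.254 in NT cells. The lowest TNF library was well above the highest NT library. PECAM1 averaged 2.30 ± 0.559 CPM in TNF cells and 0.311 ± 0.114 CPM in NT cells (SD, n = 4 each). Its log2 fold change of 2.84 (SE 0.30, 95% confidence interval 2.17 to 3.51), or 7.16-fold, was the largest among the 8 members that were tested. Within experiments 1 to 4 the log2 CPM difference of TNF minus NT was 2.29, 2.14, 3.66 and 2.74. PECAM1 lies at chr17:64319415-64413776 on the minus strand.

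CDH5 encodes VE-cadherin, the adhesion receptor that holds endothelial cells together. It had 4, 6, 1 and 4 counts in TNF replicates 1 to 4, against 10, 6, 4 and 5 counts in NT replicates 1 to 4. The summed counts were 15 in TNF cells (95% Poisson interval 8.40 to 24.7) and 25 in NT cells (16.2 to 36.9), intervals that overlap and that cover counting error only. A difference in CDH5 was not detectable at this depth, and it was not tested. It lies at chr16:66366690-66404784 on the plus strand.

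VWF encodes the multimeric glycoprotein that tethers platelets and is stored in Weibel-Palade bodies of endothelial cells. It had 11, 6, 16 and 1 counts in TNF replicates 1 to 4, against 53, 19, 21 and 13 counts in NT replicates 1 to 4. As CPM, the values were 0.315, 0.184, 0.370 and 0.0323 in TNF cells and 1.13, 0.519, 0.660 and 0.412 in NT cells. The groups did not overlap, although TNF replicate 3 and NT replicate 4 differed little, and NT replicate 1 stood above the other NT libraries. The log2 fold change was -1.55 (SE 0.52, 95% confidence interval -2.70 to -0.41), and VWF was not past the threshold. With a block on the counts filed under single samples it was also short of it (-1.54, SE 0.67). It was past it with the replicate block by title (-1.60), without NT replicate 4 (-1.73) and without TNF replicate 3 (-1.91). The listed pseudogene VWFP1 had 0 counts in all libraries.

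ENG encodes endoglin, a co-receptor for BMP and TGF-beta ligands that is abundant on endothelium. It was by far the most abundant of the 10 genes, at 158, 173, 180 and 177 CPM in TNF replicates 1 to 4, against 172, 177, 199 and 167 CPM in NT replicates 1 to 4. The groups overlapped, and the log2 fold change was -0.06 with a 95% confidence interval of -0.23 to 0.11. ENG shares 313 exon bases with a long noncoding RNA on the opposite strand, which had 7 to 18 counts per library. ENG lies at chr9:127815013-127854658 on the minus strand.

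Levels of the genes were ordered by CPM per kilobase of merged exons. In TNF cells the order was ENG (44.8), FLT1 (2.07), ANGPT1 (1.59), TIE1 (1.31), KDR (1.08), PECAM1 (0.297), TEK (0.172), VWF (0.0217), CDH5 (0.0188) and ANGPT2 (0.0043). In NT cells it was ENG (46.6), FLT1 (5.80), ANGPT1 (1.68), KDR (0.726), TIE1 (0.514), VWF (0.0655), PECAM1 (0.0402), TEK (0.0401), CDH5 (0.0275) and ANGPT2 (0.0019). In TNF cells the libraries of FLT1 and ANGPT1, of ANGPT1 and TIE1, of TIE1 and KDR, of VWF and CDH5, and of CDH5 and ANGPT2 overlapped. In NT cells overlaps were seen between KDR and TIE1, VWF and PECAM1, PECAM1 and TEK, and TEK and CDH5. With the longest transcript as length, 9 of these 20 levels moved by more than 1 SD and close neighbours changed places: TIE1 (0.886) was above KDR (0.789) in NT cells, and CDH5 (0.0273) above VWF (0.0255) in TNF cells. On the scale of merged exons, ENG stood above 93.9% of tested genes in TNF cells and 94.6% in NT cells. PECAM1 stood above 14.9% of tested genes in TNF cells and 1.51% in NT cells, and TEK stood above 9.39% in TNF cells and 1.49% in NT cells, so both stayed among the weakly expressed genes with TNF.

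**Figure D3:**
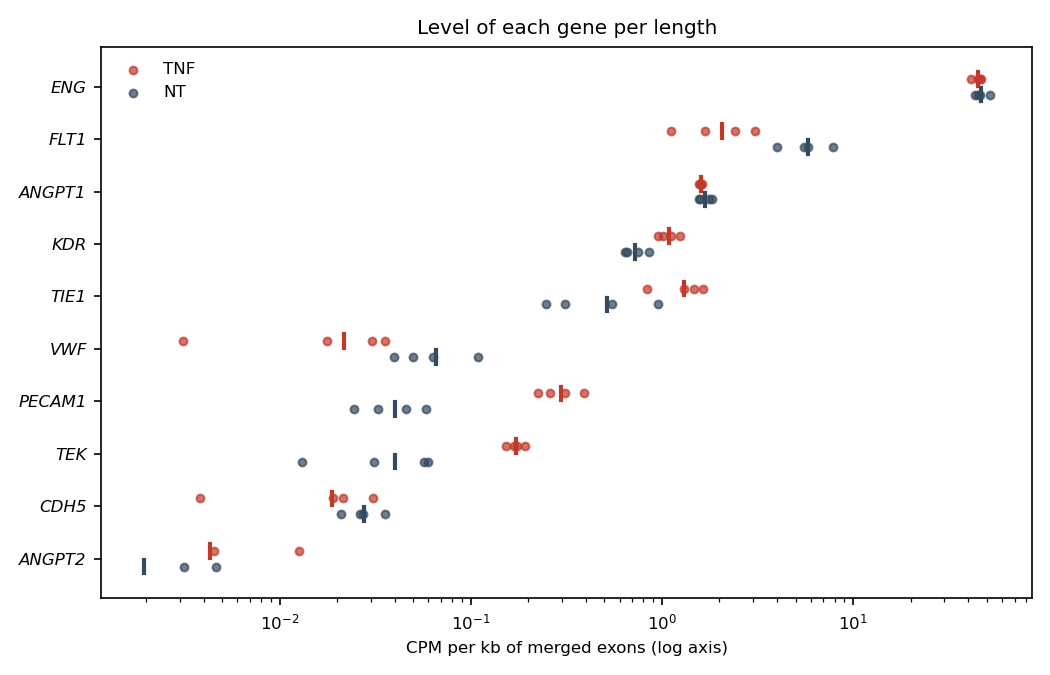
CPM per kilobase of merged exons (log axis) for the 10 genes, with TNF libraries above NT libraries in each row, points for single libraries and vertical bars for group means. Libraries with 0 counts (2 TNF and 2 NT libraries of ANGPT2) cannot be drawn on a log axis, and ENG lies more than 10 times above every other gene in TNF cells.

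Genes of the same pathways that are not members were examined next, in 6 lists of ligands, partners and regulators that were set with earlier results of these data known. Of 50 genes tested in these lists, 21 were higher and 3 were lower in TNF-treated cells (edgeR, adjusted p under 0.05). The shares over all genes tested were 14.5% and 9.9%. Of the genes called, GRB14, JAM2 and ANGPTL1 reached 10 counts only in the group in which each was high, and entered the fit through it. With at least 10 counts required in every library, 19 were higher and 2 lower. No list was tested as a set. Because the lists were set with earlier results known, nothing is read from these counts or from those of single lists below.

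Among VEGF ligands and co-receptors, 3 of 6 tested genes rose and 0 fell. VEGFC, the ligand of lymphatic growth, was at 47.8, 53.5, 46.1 and 65.9 CPM in TNF replicates 1 to 4, against 7.62, 5.62, 7.11 and 6.47 CPM in NT replicates 1 to 4, and every TNF library was far above the NT libraries. Its log2 fold change was 2.99 (SE 0.14, edgeR adjusted p = 2.62e-07). The neuropilins, co-receptors that bind VEGFs and semaphorins, rose too. NRP2 averaged 209 ± 13.8 CPM in TNF cells and 84.7 ± 12.4 CPM in NT cells (SD, n = 4 each, log2 fold change 1.30, edgeR adjusted p = 1.10e-05). NRP1 averaged 102 ± 4.55 CPM in TNF cells and 55.0 ± 4.32 CPM in NT cells (SD, n = 4 each, log2 fold change 0.90, edgeR adjusted p = 1.34e-05). The ligands shared by KDR and FLT1 did not pass the threshold: the log2 fold changes were -0.23 for VEGFA (edgeR adjusted p = 0.144, 0.0344 with the replicate block), 0.07 for VEGFB (adjusted p = 0.502) and -0.33 for PGF (adjusted p = 0.203). FLT4, the main receptor of VEGFC, had 0 to 3 counts in each library and was not tested, and neither was VEGFD.

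Among angiopoietin and TIE partners, 4 of 6 tested genes rose and 1 fell. The tested genes of this list include the angiopoietin-like genes ANGPTL1, ANGPTL2 and ANGPTL4, so its counts do not describe TIE partners alone. GRB14, an adaptor that binds receptor tyrosine kinases, had 17, 17, 19 and 29 counts in TNF replicates 1 to 4, against 5, 2, 2 and 6 counts in NT replicates 1 to 4, and the groups did not overlap. Its log2 fold change was 2.49 (SE 0.45, edgeR adjusted p = 0.00229). GRB14 reached 10 counts only in TNF libraries and entered the fit through them, which limits this call. ANGPTL2, which encodes a secreted angiopoietin-like protein, rose, with 0.57 as log2 fold change (edgeR adjusted p = 0.0103). ANGPTL1, of the same secreted family, fell, with -4.14 as its log2 fold change (SE 0.50, edgeR adjusted p = 1.56e-04). It had 0, 4, 2 and 4 counts in TNF replicates 1 to 4, against 64, 59, 43 and 29 counts in NT replicates 1 to 4. ANGPTL1 thus entered the fit through the NT libraries, in which it was high, and its call has the same limit. ANGPTL4 was at 0.04 as log2 fold change (edgeR adjusted p = 0.914).

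The other calls of this list were close to the threshold. PTPRB, which encodes VE-PTP, a phosphatase that acts on TEK, had 0.73 as log2 fold change (edgeR adjusted p = 0.0258). Without NT replicate 1, 2 or 3 the PTPRB adjusted p was 0.0538, 0.0803 and 0.0652, and without TNF replicate 2 or 3 it was 0.0578 and 0.0765. It was also 0.0833 with the block on counts filed under single samples, 0.0726 with no filter on low counts and 0.0595 when the 3 libraries of higher ribosomal share were left out. TNIP2, an A20-binding protein linked to TEK signalling, had 0.40 as log2 fold change (edgeR adjusted p = 0.0336). Without NT replicate 1 or 2 the TNIP2 adjusted p was 0.0876 and 0.0936, and without TNF replicate 2 or 4 it was 0.0746 and 0.0534. It was 0.109 with the block on counts filed under single samples, and 0.109 when the 3 libraries of higher ribosomal share were left out. ANGPT4, DOK2, GRB7 and ANGPTL6 had too few counts to be tested.

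Among the partners of endoglin, 2 of 7 tested genes rose and 1 fell. TGFBR2, the type II TGF-beta receptor, averaged 69.3 ± 5.22 CPM in TNF cells and 41.5 ± 4.39 CPM in NT cells (SD, n = 4 each, log2 fold change 0.74, edgeR adjusted p = 1.78e-04). TGFBR3, or betaglycan, a co-receptor related to endoglin, had 0.54 as log2 fold change (edgeR adjusted p = 0.00726, 0.0503 without the 3 libraries with more ribosomal RNA and 0.0584 with the block on counts filed under single samples). SMAD5, a transducer of BMP signals, had -0.20 as log2 fold change (edgeR adjusted p = 0.0487), and its adjusted p was 0.0587 to 0.116 without any 1 of NT replicates 1 to 4 or TNF replicates 1 to 3 and 0.175 with the block on counts filed under single samples. ACVRL1, which encodes the endothelial receptor ALK1, had 4 to 21 counts in TNF libraries and 0 to 6 in NT libraries and was not tested. The ligand genes GDF2 and BMP10 had 0 counts in all libraries.

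Junction genes other than PECAM1 and CDH5 were mixed, with 5 of 11 tested genes higher and 1 lower. JAM2, a junctional adhesion molecule of endothelium, had 36, 28, 21 and 38 counts in TNF replicates 1 to 4, against 6, 9, 5 and 7 counts in NT replicates 1 to 4. Its groups did not overlap (log2 fold change 2.24, edgeR adjusted p = 0.00146), but like GRB14 it entered the fit through the TNF libraries only. JUP, or plakoglobin, was at 0.92 on the log2 fold change scale (edgeR adjusted p = 0.00112), and GJA5, a gap junction connexin, of -1.06 (edgeR adjusted p = 8.11e-04). Among VWF partners 1 of 7 tested genes rose and 0 fell. It was F3, or tissue factor, the initiator of coagulation, with 1.24 as log2 fold change (edgeR adjusted p = 0.00607). SELP, which is stored beside VWF in endothelial cells, had 0 counts in all libraries.

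Endothelial transcription factors gave 6 higher and 0 lower of 13 tested. ETS1 was at 254, 321, 249 and 330 CPM in TNF replicates 1 to 4, against 63.8, 70.2, 72.3 and 77.6 CPM in NT replicates 1 to 4, and the groups were far apart (log2 fold change 2.02, SE 0.11, edgeR adjusted p = 7.60e-07). FLI1, another ETS family factor, had 1.61 as log2 fold change (edgeR adjusted p = 2.59e-06), and LMO2, a cofactor in blood and vessel development, of 1.33 (edgeR adjusted p = 1.83e-04). HHEX, ELK3 and NR2F2 were the other 3 that rose. ERG, the ETS factor most typical of endothelium, had 3 counts in all 8 libraries together, and SOX17 had 0.

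**Figure D4:**
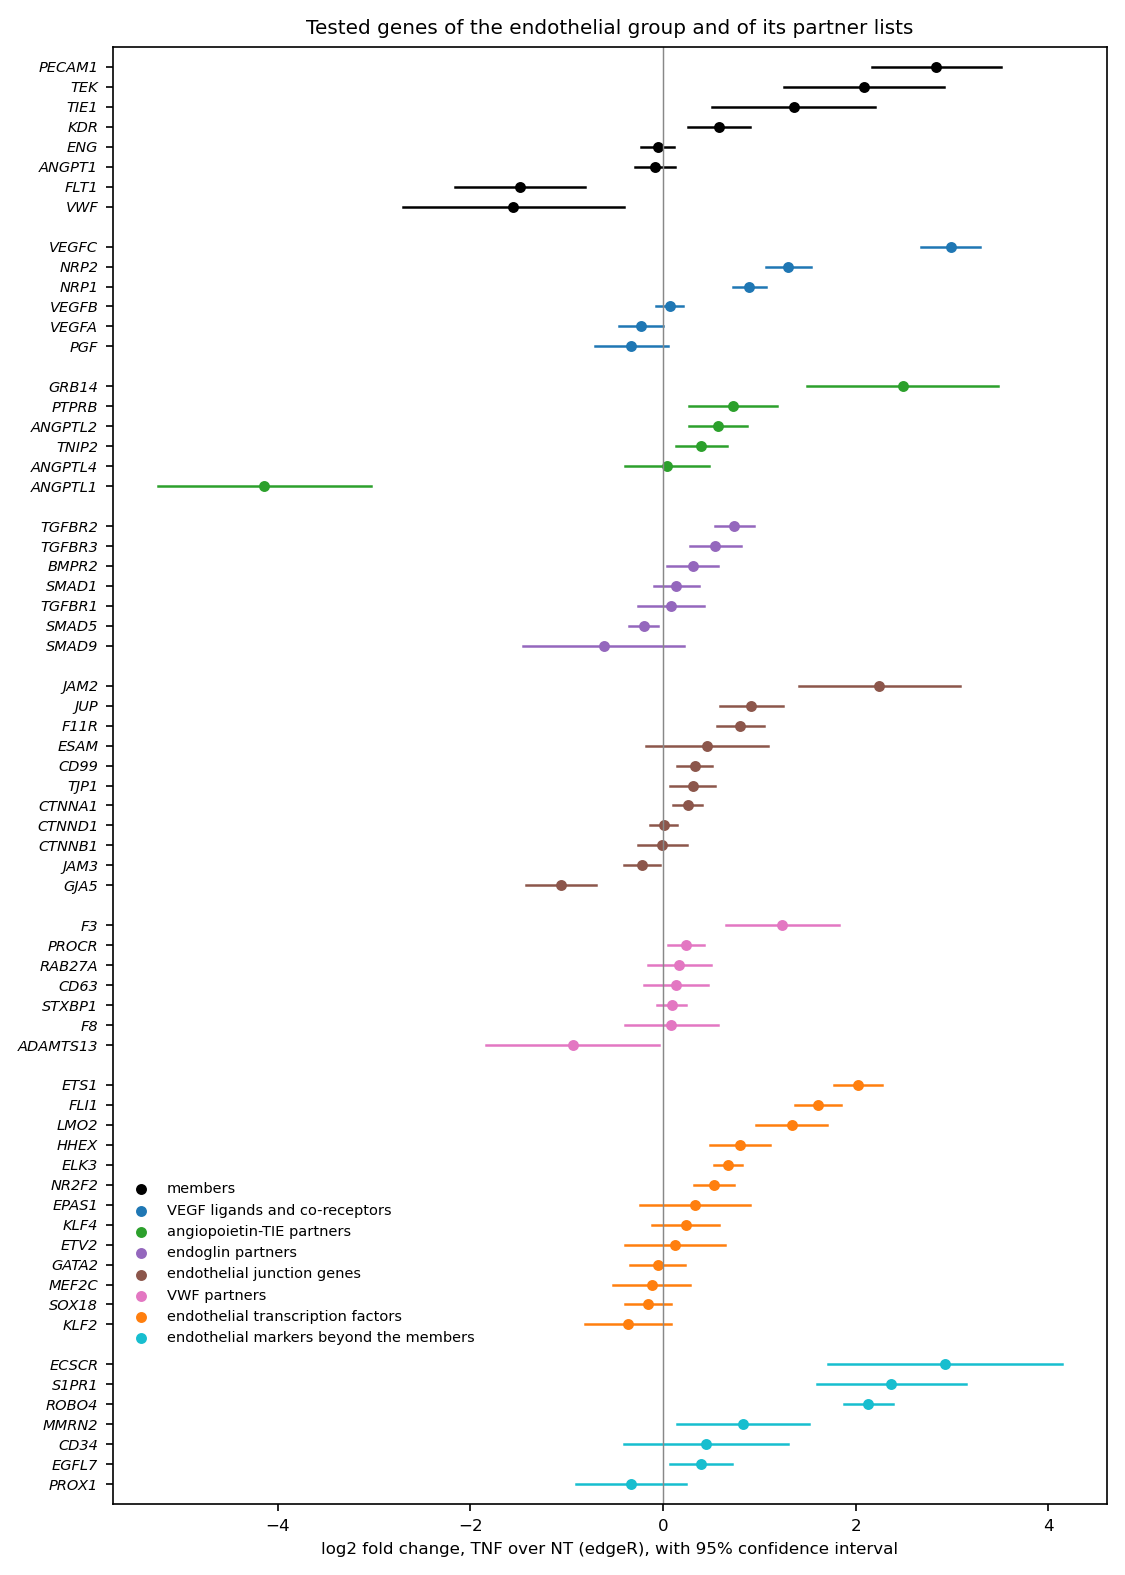
Log2 fold change of TNF over NT (points) with its 95% confidence interval (bars) for the 8 tested members and for the tested genes of 6 partner lists and of the endothelial marker list, coloured by list. PECAM1 has the largest value among the members (2.84), VEGFC among the VEGF list (2.99), and ENG and ANGPT1 lie beside 0.

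Marker genes were used to check what the libraries hold. SOX10, which marks the melanocyte lineage, averaged 1176 CPM in TNF cells and 1024 CPM in NT cells. MITF averaged 21.9 CPM in TNF cells and 21.0 CPM in NT cells. PMEL, MLANA, DCT, TYRP1 and TYR of this list were barely detected. PMEL averaged 0.456 CPM in TNF cells and 0.457 CPM in NT cells, and MLANA 0.386 and 0.352 CPM. DCT had 25 counts, TYRP1 13 and TYR 1 in all libraries together. Among 5 melanocyte markers tested, S100B was the single call (log2 fold change -2.50, edgeR adjusted p = 6.77e-06). S100B averaged 3.05 CPM in TNF cells and 17.3 CPM in NT cells. The blood markers MS4A1, GP9, PF4, PPBP and HBB had 0 counts in all libraries, and the summed level of the 11 blood markers was 2.10 to 5.51 CPM in TNF libraries and 5.28 to 7.24 CPM in NT libraries, most of it LYZ. LYZ, or lysozyme, was the 1 blood marker tested and was lower (log2 fold change -0.90, edgeR adjusted p = 0.0470), a call that was lost without any 1 of NT replicates 1 to 4 or TNF replicates 2 to 4 (adjusted p 0.0572 to 0.128). For the 9 fibroblast and pericyte markers the sum was 1030 to 1272 CPM in TNF libraries and 734 to 993 CPM in NT libraries, nearly all of it CSPG4. Of 7 tested, 2 were higher and 0 lower: CSPG4, a proteoglycan gene that melanoma cells also express (log2 fold change 0.45, edgeR adjusted p = 0.00894), and DCN, which encodes the matrix proteoglycan decorin (log2 fold change 1.403, edgeR adjusted p = 0.0167). DCN averaged 1.48 ± 0.706 CPM in TNF cells and 0.549 ± 0.184 CPM in NT cells (SD, n = 4 each), and its adjusted p was 0.0530 without NT replicate 2. The part of these marker genes in the members' values was not tested. Among the 14 endothelial markers beyond the members, CLEC14A and LYVE1 had 0 counts in all libraries.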

How the data were processed

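RNA of A375 cells was sequenced in 8 libraries, 4 TNF and 4 NT. The authors aligned reads with Bowtie2 to a GRCh38 transcriptome and estimated counts with RSEM 1.2.25, and the deposited table holds their expected counts per gene, not normalised. Treatment and replicate number were taken from the sample labels. Total counts ran from 33317454 to 43125094 in TNF libraries and from 30989787 to 44373296 in NT libraries.

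Expected counts were rounded to whole numbers, passed through filterByExpr (min.count 10, min.total.count 15), scaled with TMM factors and fitted by the robust quasi-likelihood method of edgeR 4.0.16 in R 4.3.3. P-values were adjusted by Benjamini-Hochberg over 16186 genes, with a threshold of 0.05. CPM was scaled by the same factors, and log2 CPM carried a prior count of 2. The members, the lists and the naming rule were chosen with earlier results of these data known. Named were all members, all tested genes of the VEGF and angiopoietin lists, and in each other list up to 3 genes past the threshold with the largest change. Lengths and positions are from GENCODE release 44 (GRCh38), and levels between genes were compared only per kilobase of merged exons. The script was tested on simulated data.

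The replicate number marks a shared experiment date, and libraries of 1 number deviated together from their group means (correlations of 0.35, 0.17, 0.24 and 0.46 over 16186 genes). Other pairings of TNF and NT libraries were not compared, so these values do not settle which libraries belong together. The main fit had no replicate block, so its standard errors, intervals and adjusted p-values make no use of a pairing. For 4 of 4 NT samples the counts filed under the single sample are those of another NT library in the series table, against 0 of 4 TNF samples, and the series table was used. No 2 libraries of the same treatment were alike within counting noise, so each counts as 1 replicate. Alternatives were DESeq2 1.42.0, limma voom 3.58.1, other normalisation factors, other filters, the replicate block by title and with the counts filed under single samples, each library left out, a threshold of 0.01 and, chosen after seeing the data, omission of experiment 4 or of the 3 libraries with more ribosomal RNA.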

Additional observations from a re-analysis of the deposited data

Results flagged for a closer look

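ECSCR, an endothelial cell surface gene that is not a member, had 0 counts in NT replicate 1, a log2 CPM of -4.17, whereas the other NT libraries lay between -2.02 and -1.69. This library was farther from the rest than Dixon's 95% critical value for 4 samples allows. Of 78 groups of libraries looked at, 1 was picked out in this way, and chance gives about 1 in 20, or 3.9.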

How the results depend on the processing

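PECAM1 (2.67 to 3.09), TEK (1.82 to 2.85) and KDR (0.50 to 0.80) were past the threshold in every alternative that tested them, and ANGPT1 and ENG in none. Every alternative was a refit of the same libraries with members already chosen on this contrast, so these calls describe the processing only. TIE1 (1.13 to 2.08) was past it in 11 of 19 alternatives, FLT1 (-1.74 to -0.99) in 17 of 19 and VWF (-1.91 to -1.17) in 9 of 18, and the cause was not tested. The number of members higher, 4, was 2 at a threshold of 0.01 and 2 with at least 10 counts in every library, where PECAM1, TEK and VWF were not tested and 5 members remained, and it was 3 to 4 with 1 library left out. The number lower, 1, was 2 with DESeq2, library totals, no filter, upper-quartile factors and without experiment 4, and 1 to 2 with 1 library left out. Partner genes lower numbered 3, and 5 with library totals and 6 with the replicate block. Over all genes, 2345 were higher and 1603 lower (59.4% higher), against 1925 and 2514 with library totals (43.4%), 2045 and 2196 with upper-quartile factors (48.2%), 3451 and 2946 with the replicate block, 1557 and 801 with the block on counts filed under single samples, and 1548 and 772 at a threshold of 0.01. With 1 library left out, 1880 to 2521 were higher and 1110 to 1896 lower. ANGPTL4 turned to -0.035 with library totals, -0.014 with upper-quartile factors and ran from -0.20 to 0.15 with 1 library left out (negative without NT replicate 1, -0.023, and without TNF replicate 3), and VEGFB to -0.014 with library totals. Depth limits ANGPT2, CDH5, VWF and, in NT cells, TEK and PECAM1.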

Other observations

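Endothelial markers that are not members were looked at as well. Of 14 such genes, 7 had enough counts to be tested, and 3 were higher and 0 lower in TNF-treated cells (edgeR, adjusted p under 0.05). This list too was set with earlier results known, so nothing is read from its counts. EGFL7, CD34, MMRN2 and PROX1 were tested and were not past the threshold. EMCN, PLVAP, CLEC14A, ICAM2, LYVE1, NOS3 and SELE had too few counts to be tested. ROBO4, a receptor that stabilises vessels, was at 170, 177, 154 and 203 CPM in TNF replicates 1 to 4, against 34.6, 38.4, 40.4 and 47.4 CPM in NT replicates 1 to 4. The groups were far apart, and the log2 fold change was 2.13 (SE 0.12, edgeR adjusted p = 6.51e-07). S1PR1, a receptor for sphingosine 1-phosphate that tightens endothelial junctions, was at 10.6, 11.1, 7.94 and 13.7 CPM in TNF replicates 1 to 4, against 1.24, 2.57, 1.07 and 3.55 CPM in NT replicates 1 to 4 (log2 fold change 2.37, edgeR adjusted p = 6.77e-04). Its highest NT library was replicate 4 and its lowest NT library replicate 3, and the same held for TIE1. ECSCR had 55, 38, 53 and 34 counts in TNF replicates 1 to 4, against 0, 7, 8 and 8 counts in NT replicates 1 to 4 (log2 fold change 2.93, edgeR adjusted p = 0.00280). It entered the fit through the TNF libraries only, in which it was high, which limits this call. The summed level of the 14 markers was 183 to 236 CPM in TNF libraries and 55.4 to 70.0 CPM in NT libraries, and most of it was ROBO4.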
